A study of Mus musculus with 9 samples.

Results

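Chemokines are small secreted proteins that direct the movement of white blood cells, and chemokine receptors are the surface proteins that bind them. All genes whose symbol begins with Ccl, Cxcl, Cx3cl or Xcl (ligands) or with Ccr, Cxcr, Cx3cr, Xcr or Ackr (receptors), followed by a number, were taken from an array data set of mouse granulocyte-monocyte progenitors (GMPs). This gave 56 of 21872 genes, of which 35 were ligands and 21 were receptors. Where a gene had several probes, the brightest on average across the 9 arrays was used. The study hybridized total RNA of sorted GMPs, with the single dye Cy3, to Agilent mouse expression arrays, in 3 groups of 3 arrays called biological triplicates. LeuA (also AE1) and LeuB (also AE3) are GMPs of mice that received spleen cells from a moribund leukaemic donor of genotype Tet2-/-:AE, where AE is the AML1-ETO fusion. Both leukaemias lack Tet2 and carry AE, and each stems from 1 donor mouse, so its 3 arrays are replicates of 1 leukaemia. WT is GMPs of mice that received wild-type bone marrow, so the graft's tissue changed together with its genotype. In all groups the cells came from the marrow of recipients 1 month after the transplant, on a C57BL/6 background, through a gate for Kit+ CD16/32+ cells without lineage antigens, Sca1 or CD150. How AE was introduced, and whether an array holds 1 recipient or a pool, is not given in the labels.

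A ligand binds a receptor that spans the membrane and signals through a G protein of the Gi class, and the cell then moves toward the higher ligand level. The atypical receptors (Ackr) bind ligands without this signal and remove or transport them. In bone marrow, Cxcl12 made by stromal cells holds progenitors and neutrophils in place through Cxcr4, whereas Cxcr2 and Ccr2 are known for the release of neutrophils and monocytes into blood.

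Values are log2 intensities as deposited, between 5.66 and 18.24. A gene was called at an adjusted p below 0.05, from limma with Benjamini-Hochberg adjustment across the 21872 genes, and "rose" and "fell" are used of called genes. The comparisons with WT share the 3 WT arrays. The labelled cell type was checked against GMP and granule genes (Mpo, Elane, Prtn3, Ctsg, Cebpa, Cebpe and Ms4a3), whose mean level lay between 7.89 and 8.00 in the LeuA arrays, 7.49 and 8.02 in the LeuB arrays, and 15.75 and 15.89 in the WT arrays. All 7 fell in both leukaemias, so the leukaemic cells, sorted through the same gate, differed from WT in the genes that mark the labelled cell type. Some kept a signal above the median of genes, such as Elane at 9.58 in LeuA and 9.61 in LeuB, against 16.72 in WT. Of the gate's own genes, Kit differed from WT by -0.17 in LeuA and by -0.22 in LeuB and was not called in either, whereas the CD16/32 genes Fcgr3 (-1.78 and -1.43) and Fcgr2b (-1.64 and -0.96) fell in both and Slamf1, which encodes CD150, rose in LeuB (0.83). LeuB 1 lay on the slide of the LeuA and WT arrays, and LeuB 2 and LeuB 3 on a second slide. LeuB 3 and WT 1 stood apart in the mean of 6 mature neutrophil genes. That mean was 9.89 in LeuB 3 against 6.82 and 7.25 in the other LeuB arrays. In WT 1 it was 9.03, and in the remaining WT arrays 11.24 and 11.19. One of the 6, S100a8, did not set WT 1 apart (13.12, against 13.21 and 13.29). Of the lists of other cell types not given beside a result, 1 of 3 B cell genes fell in both leukaemias, and of 4 stromal and endothelial genes LeuA had 1 higher, and LeuB 1 higher and 1 lower. The number of arrays limits the precision, and fewer expressing cells cannot be told apart from less RNA per cell.

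Most members were dim in every group. The highest group mean lay above 7.53, the median of all gene means, in 9 of 35 ligands and in 6 of 21 receptors, and the other 41 members had highest group means between 6.02 and 7.36. Called in LeuA were 16 of 35 ligands (45.7%), 5 higher and 11 lower, against 36.8% called, 17.9% higher and 18.9% lower, over all genes. Called in LeuB were 17 of 35 (48.6%), 5 higher and 12 lower, against 42.3% called, 21.8% higher and 20.4% lower. Of the receptors, LeuA had 3 higher and 3 lower (28.6% called) and LeuB 4 higher and 3 lower (33.3%). These shares lie on either side of the shares of all genes. Among members above the median of genes, 8 of 9 ligands were called in each leukaemia. Of the 6 receptors above it, 6 were called in LeuA and 5 in LeuB. The share of all genes above the median that were called was 58.8% in LeuA and 63.7% in LeuB. The median difference from WT over the ligands was 0.01 in LeuA and -0.06 in LeuB, that over the receptors was 0.00 in both, and that over all genes was 0.01 and -0.01. Called changes of at least 2-fold were found in LeuA in 3 ligands (8.57%) and 5 receptors (23.8%), against 13% of all genes, and in LeuB in 4 ligands (11.4%) and 5 receptors (23.8%), against 13.8%. The arrays of LeuA and WT did not overlap in 16 ligands and 9 receptors (49.5% of all genes), and those of LeuB and WT in 20 ligands and 9 receptors (52.4%).

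**Figure D1:**
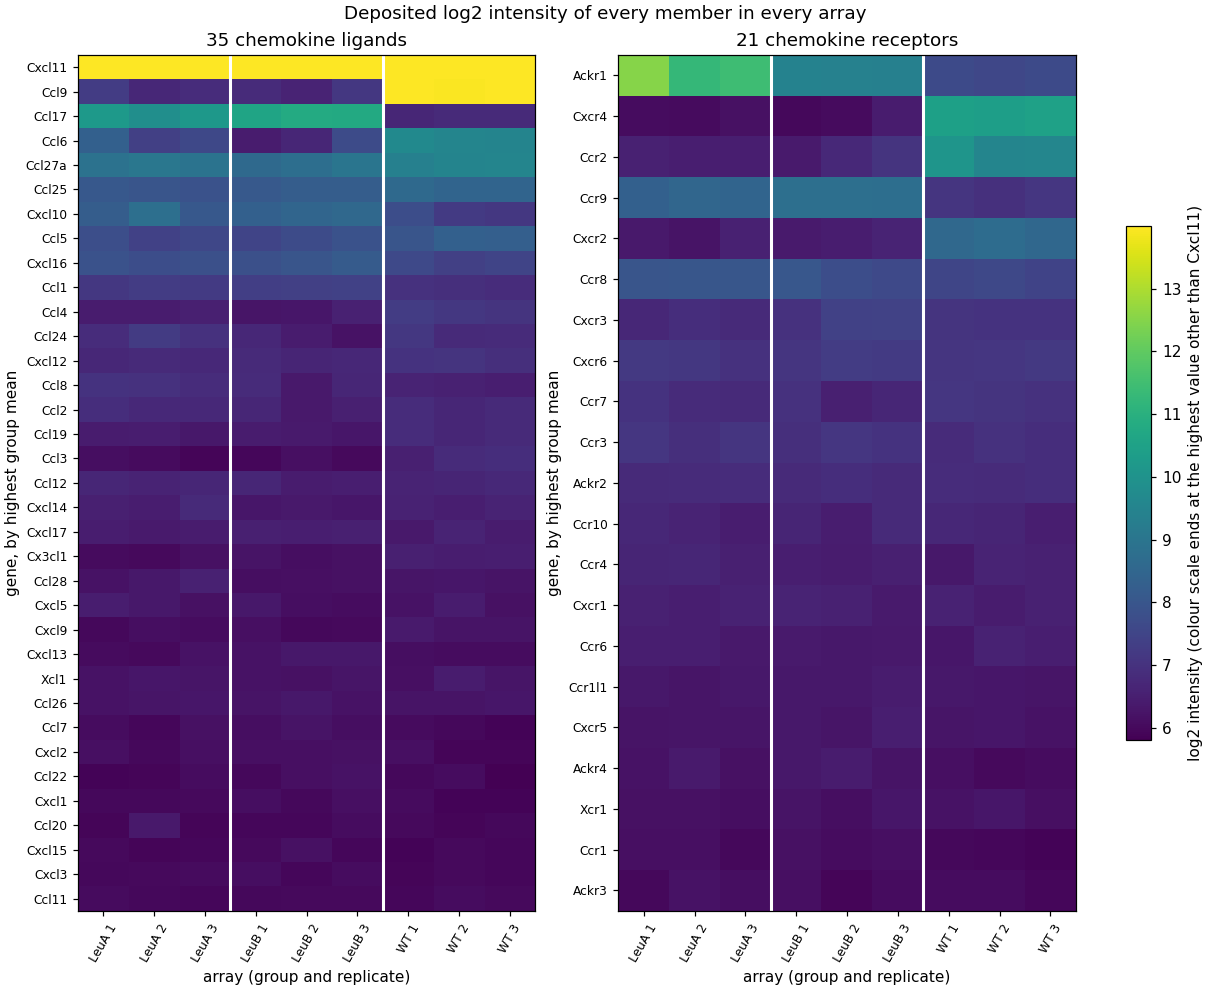
Deposited log2 intensity of all 35 ligands (left panel) and 21 receptors (right panel), 1 row per gene and 1 column per array, with LeuA, LeuB and WT arrays from left to right. Genes are ordered by their highest group mean, and the colour scale ends at the highest value other than those of Cxcl11. Ccl9, Ccl6, Cxcr4, Ccr2 and Cxcr2 are brighter in the WT arrays than in the leukaemic arrays, and Ccl17, Ackr1 and Ccr9 the reverse. Cxcl11 is bright in every array, and most other rows are dark throughout.

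The promoters of the 5 members that differed from WT by more than 8-fold in at least 1 leukaemia, and of Ccl6, which adjoins Ccl9 and fell with it, are shown because these genes carry the main differences. Each is the stretch of 250 bases before the annotated start in RefSeq (build GRCm38.p6), 5′ to 3′ along the gene. Capitals mark matches to 5 motifs, searched on both strands. The motif for RUNX factors was TGTGGT. For C/EBP factors TTNNGNAA was searched, where N is any base, and for PU.1 GAGGAAGT. The motif of the erythroid and mast cell factors of the GATA family was AGATAA. The NF-kappaB consensus was the fifth. The members that fell in both leukaemias come first.
Ccl9 (chr11:83578637-83578886, minus strand): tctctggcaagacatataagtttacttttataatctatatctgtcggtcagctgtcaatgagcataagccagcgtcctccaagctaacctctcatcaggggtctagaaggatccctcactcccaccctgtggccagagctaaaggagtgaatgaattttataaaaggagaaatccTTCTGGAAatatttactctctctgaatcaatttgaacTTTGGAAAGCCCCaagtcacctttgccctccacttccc
Ccl6 (chr11:83593088-83593337, minus strand): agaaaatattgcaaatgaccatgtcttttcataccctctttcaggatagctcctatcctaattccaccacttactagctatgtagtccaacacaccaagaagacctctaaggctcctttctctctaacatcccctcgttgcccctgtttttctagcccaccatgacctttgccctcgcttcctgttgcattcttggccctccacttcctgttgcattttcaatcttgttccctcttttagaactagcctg
Cxcr4 (chr1:128592300-128592549, minus strand): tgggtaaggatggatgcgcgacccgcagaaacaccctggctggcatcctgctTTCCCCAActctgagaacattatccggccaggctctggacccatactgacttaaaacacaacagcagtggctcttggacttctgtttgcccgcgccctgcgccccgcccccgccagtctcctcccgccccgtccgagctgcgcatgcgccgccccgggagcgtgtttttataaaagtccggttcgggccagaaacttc
Ccr2 (chr9:124101933-124102182, plus strand): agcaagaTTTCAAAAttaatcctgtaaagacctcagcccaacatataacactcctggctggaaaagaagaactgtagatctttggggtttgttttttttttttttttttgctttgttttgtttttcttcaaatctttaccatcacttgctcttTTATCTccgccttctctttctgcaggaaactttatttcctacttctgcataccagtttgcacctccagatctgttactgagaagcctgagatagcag
The members that rose in both leukaemias follow.
Ccl17 (chr8:94810203-94810452, plus strand): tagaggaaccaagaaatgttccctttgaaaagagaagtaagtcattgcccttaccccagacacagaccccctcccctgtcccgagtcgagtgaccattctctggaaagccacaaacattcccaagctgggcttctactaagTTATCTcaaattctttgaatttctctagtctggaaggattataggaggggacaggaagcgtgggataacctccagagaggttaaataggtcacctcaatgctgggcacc
Ackr1 (chr1:173333504-173333753, minus strand): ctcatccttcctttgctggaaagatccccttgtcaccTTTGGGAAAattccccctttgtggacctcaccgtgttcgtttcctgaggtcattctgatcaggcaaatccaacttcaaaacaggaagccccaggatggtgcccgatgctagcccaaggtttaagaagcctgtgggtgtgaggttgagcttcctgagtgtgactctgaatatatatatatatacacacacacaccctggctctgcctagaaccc

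Among the members that fell, Ccl9 had C/EBP matches starting 75 and 38 bases before the start, the second of which overlapped an NF-kappaB match that began 35 bases before the start. Cxcr4 had 1 C/EBP match 198 bases before the start. Ccr2 had a C/EBP match 243 and a GATA match 97 bases before the start, and Ccl6 had no match to the 5 motifs in this window. Among the members that rose, Ccl17 had a GATA match 109 bases before the start, and Ackr1 had 2 overlapping C/EBP matches that began 213 and 212 bases before it. Of all 32851 windows of this length, 36.8% held the C/EBP motif, 14% the RUNX, 9.99% the GATA, 2.44% the PU.1 and 1.41% the NF-kappaB motif. RefSeq windows were found for 42 of the 56 members, 46 windows in all, of which 22 held the C/EBP, 10 the RUNX, 7 the GATA, 6 the NF-kappaB and 1 the PU.1 motif. The pair CG occurred 19 times in the Cxcr4 window, 3 times each in those of Ccl17 and Ackr1, 2 times each in those of Ccl9 and Ccl6 and 1 time in that of Ccr2, against a median of 6 over all windows and 3 over the members' windows.

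Among the ligands, the largest change was in Ccl9, a CC chemokine of mouse myeloid cells that signals through Ccr1. Ccl9 was at 7.27, 6.74 and 6.86 in LeuA and at 6.81, 6.62 and 7.15 in LeuB, against 13.97, 13.94 and 14.00 in WT. The WT arrays lay close together and above all leukaemic arrays. Ccl9 was 129-fold lower in LeuA (log2 difference -7.01, SE 0.16, adjusted p = 8.25e-10) and 138-fold lower in LeuB (-7.11, adjusted p = 7.91e-10), while LeuB and LeuA differed by -0.10 (adjusted p = 0.718).

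Ccl6, the neighbour of Ccl9 and another ligand of Ccr1, fell less and more unevenly. It was at 8.31, 7.35 and 7.58 in LeuA and at 6.45, 6.70 and 7.67 in LeuB, against 9.70, 9.54 and 9.51 in WT. All leukaemic arrays lay below WT, but LeuA 1 and LeuB 3 lay above the other arrays of their groups. The difference of Ccl6 from WT was -1.83 in LeuA (SE 0.32, adjusted p = 0.00132) and -2.64 in LeuB (adjusted p = 0.000106). LeuB minus LeuA was -0.81 (adjusted p = 0.144), and without LeuB 3 it was -1.18 (adjusted p = 0.0301).

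Beside these falls, the monocyte and macrophage genes Csf1r, F13a1, Ms4a6c, Irf8 and Adgre1 all fell in both leukaemias, 5 of 5 measured. Their mean level lay between 6.45 and 6.53 in the LeuA arrays, 6.56 and 7.09 in the LeuB arrays, and 11.21 and 11.86 in the WT arrays. Their part in the falls of Ccl9, Ccl6 and Ccr2 was not tested.

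Ccl3 and Ccl4, inflammatory chemokines that attract monocytes and T cells, were at the dim end already in WT. Ccl3 was at 6.12, 6.05 and 5.93 in LeuA and at 5.96, 6.14 and 6.03 in LeuB, against 6.52, 6.81 and 6.87 in WT. Ccl4 was at 6.43, 6.42 and 6.53 in LeuA and at 6.27, 6.30 and 6.55 in LeuB, against 7.25, 7.13 and 7.03 in WT. Both fell, and neither had leukaemic arrays that overlapped with WT. For Ccl3 the difference was -0.70 in LeuA (SE 0.10, adjusted p = 0.000395) and -0.69 in LeuB (0.000401), and for Ccl4 it was -0.68 in LeuA (SE 0.09, adjusted p = 0.000239) and -0.76 in LeuB (9.72e-05).

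Ccl5, a chemokine best known from T cells, also fell, from a level just above the median of genes. It was at 7.77, 7.41 and 7.57 in LeuA and at 7.48, 7.69 and 7.86 in LeuB, against 7.96, 8.32 and 8.28 in WT. The lowest WT array, WT 1, lay only slightly above LeuB 3. The difference was -0.60 in LeuA (SE 0.14, adjusted p = 0.00613) and -0.51 in LeuB (adjusted p = 0.0142), and the call in LeuB was lost without WT 2 (adjusted p = 0.0545) and without WT 3 (0.0543).

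Ccl17, the ligand of Ccr4 on type 2 helper and regulatory T cells, was the ligand that rose most. It was at 10.21, 9.86 and 10.18 in LeuA and at 10.60, 10.83 and 10.78 in LeuB, against 6.70, 6.77 and 6.80 in WT. WT lay below the median of genes and the leukaemic arrays far above it, with LeuB above LeuA. Ccl17 was 10.0-fold higher in LeuA (log2 difference 3.33, SE 0.10, adjusted p = 6.25e-09) and 15.8-fold higher in LeuB (3.98, adjusted p = 1.92e-09). LeuB exceeded LeuA by 0.65 (adjusted p = 0.00404), a call that was lost once a slide term was added to the model (0.52, adjusted p = 0.0889). Ccl22, which shares the receptor Ccr4 with Ccl17, was at group means of 5.97 in LeuA, 6.12 in LeuB and 5.96 in WT, and Ccr4 at 6.62, 6.49 and 6.50, and neither was called.

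Cxcl10, an interferon-induced ligand of Cxcr3, rose in both leukaemias. It was at 8.22, 8.81 and 8.06 in LeuA and at 8.31, 8.48 and 8.57 in LeuB, against 7.75, 7.21 and 7.14 in WT. The groups did not overlap, although WT 1 lay apart from the other WT arrays and toward the leukaemic ones. The difference was 0.99 in LeuA (SE 0.21, adjusted p = 0.00442) and 1.08 in LeuB (adjusted p = 0.00242), and the LeuB call was lost with a slide term (0.94, adjusted p = 0.0521). The second Cxcl10 probe, near the bottom of the scale at 6.23 in LeuA, 6.22 in LeuB and 6.09 in WT, gave 0.14 and 0.13 and was not called. Cxcl9, another interferon-induced ligand of Cxcr3, was at 6.05 in both leukaemias and 6.30 in WT and differed by -0.25 in each (SE 0.08), with an adjusted p of 0.0343 in LeuA and 0.0299 in LeuB. Its LeuA call was lost without WT 1 (adjusted p = 0.115), WT 2 (0.0548), LeuA 1 (0.111) or LeuA 3 (0.0718), and its LeuB call without WT 1 (0.0996), LeuB 2 (0.103) or LeuB 3 (0.0835) and with a slide term (0.354).

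Cxcl11, the remaining ligand of Cxcr3, had a bright signal in every array. It was at 17.34, 17.35 and 16.79 in LeuA and at 17.39, 17.39 and 17.29 in LeuB, against 17.08, 16.82 and 17.36 in WT. The groups overlapped, and the differences from WT of 0.07 in LeuA and 0.27 in LeuB (SE 0.17) were not called (adjusted p = 0.805 and 0.241). Its highest group mean is at percentile 99.7 of all genes, although signals of different probes are not a measure of relative amounts. What its single probe reads was not tested, and the reading frame of Cxcl11 is known to be interrupted in C57BL/6 mice.

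Cxcl16, a ligand of Cxcr6 that also exists in a membrane-bound form, was at 7.88, 7.73 and 7.82 in LeuA and at 7.81, 7.97 and 8.17 in LeuB, against 7.63, 7.36 and 7.48 in WT. The difference was 0.32 in LeuA (SE 0.10, adjusted p = 0.0378) and 0.50 in LeuB (adjusted p = 0.00367). The arrays did not overlap, but the LeuA call was lost without WT 2 (adjusted p = 0.137), WT 3 (0.0966), LeuA 1 (0.109), LeuA 3 (0.091) or LeuB 2 (0.0574), and the LeuB call with a slide term (0.32, adjusted p = 0.0911).

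Ccl27a, a ligand of Ccr10 known from skin, was at 8.89, 9.06 and 8.92 in LeuA and at 8.63, 8.78 and 8.99 in LeuB, against 9.37, 9.50 and 9.55 in WT. The difference was -0.52 in LeuA (SE 0.10, adjusted p = 0.00245) and -0.68 in LeuB (adjusted p = 0.000412), and its second probe gave -0.49 and -0.62. Ccl25, the ligand of Ccr9 made by thymus and small intestine, was at 8.07, 7.97 and 7.88 in LeuA and at 8.10, 8.23 and 8.24 in LeuB, against 8.62, 8.44 and 8.44 in WT. Its difference was -0.53 in LeuA (SE 0.08, adjusted p = 0.000571) and -0.31 in LeuB (adjusted p = 0.0119). The Ccl25 calls rest on 1 of 4 probes, and with the mean of all 4 the differences were -0.04 and -0.06 (adjusted p = 0.881 and 0.758).

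Cxcl12, the marrow retention ligand, was dim in all arrays. It was at 6.74, 6.78 and 6.76 in LeuA and at 6.78, 6.65 and 6.72 in LeuB, against 7.01, 7.04 and 6.93 in WT. The leukaemic arrays lay just below WT, with differences of -0.23 in LeuA (SE 0.06, adjusted p = 0.0137) and -0.28 in LeuB (adjusted p = 0.00506), and the second probe was not called (-0.07 in each). The LeuA call was lost without WT 2 (adjusted p = 0.0594) and when its probes were averaged (-0.15, adjusted p = 0.0744), and the LeuB call with a slide term (-0.21, adjusted p = 0.0747).

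The other called ligands were dim too, with group means between 6.08 and 7.36. Ccl19, a ligand of Ccr7 made by lymph node stroma, fell (-0.36 in LeuA, -0.38 in LeuB, SE 0.07), as did Cx3cl1, the membrane-anchored fractalkine (-0.41 in LeuA, -0.32 in LeuB, SE 0.07), whose LeuB call was lost with a slide term (-0.25, adjusted p = 0.0576). Ccl1, a ligand of Ccr8, rose (0.28 in LeuA with an adjusted p of 0.00618, 0.44 in LeuB with 0.000349, SE 0.06). Its second probe, at 6.37 in LeuA, 7.12 in LeuB and 6.01 in WT, gave 0.37 and 1.11. With limma and adjustment over all probes, that probe was not called in LeuA (adjusted p = 0.2) and was called in LeuB (0.00109).

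Ccl8, which in the mouse also acts on Ccr8, rose by 0.39 in LeuA (adjusted p = 0.0197) and differed by 0.08 in LeuB (0.62). Its LeuA call was lost without WT 3 (adjusted p = 0.0734), LeuA 1 (0.0615) or LeuA 2 (0.0579). Ccl24, an eosinophil attractant, was lower in LeuB (-0.44, adjusted p = 0.0494), a call lost without any of WT 1 (0.162), WT 2 (0.0594), WT 3 (0.0709), LeuA 3 (0.0654), LeuB 2 (0.118) or LeuB 3 (0.168). Cxcl13, a B cell attractant, was higher in LeuB (0.21, adjusted p = 0.0411), a call lost without WT 1 (0.0704), WT 2 (0.103), WT 3 (0.109), LeuA 1 (0.0517), LeuB 2 (0.117) or LeuB 3 (0.116). With a slide term, Ccl24 and Cxcl13 were not called either (adjusted p = 0.584 and 0.388).

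The 17 ligands called in no comparison were Cxcl11 and 16 others with highest group means between 6.02 and 6.81. Cxcl2, a neutrophil attractant that acts on Cxcr2, is an example, at 6.14, 5.99 and 6.14 in LeuA and at 6.14, 6.14 and 6.19 in LeuB, against 6.16, 5.94 and 5.94 in WT. Its differences of 0.08 and 0.15 (SE 0.08) had adjusted p of 0.518 and 0.175, and without WT 1 the LeuB difference was called (0.22, adjusted p = 0.0426). The neutrophil attractants Cxcl1, Cxcl3 and Cxcl5 were as dim, with group means between 5.95 and 6.33.

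**Figure D2:**
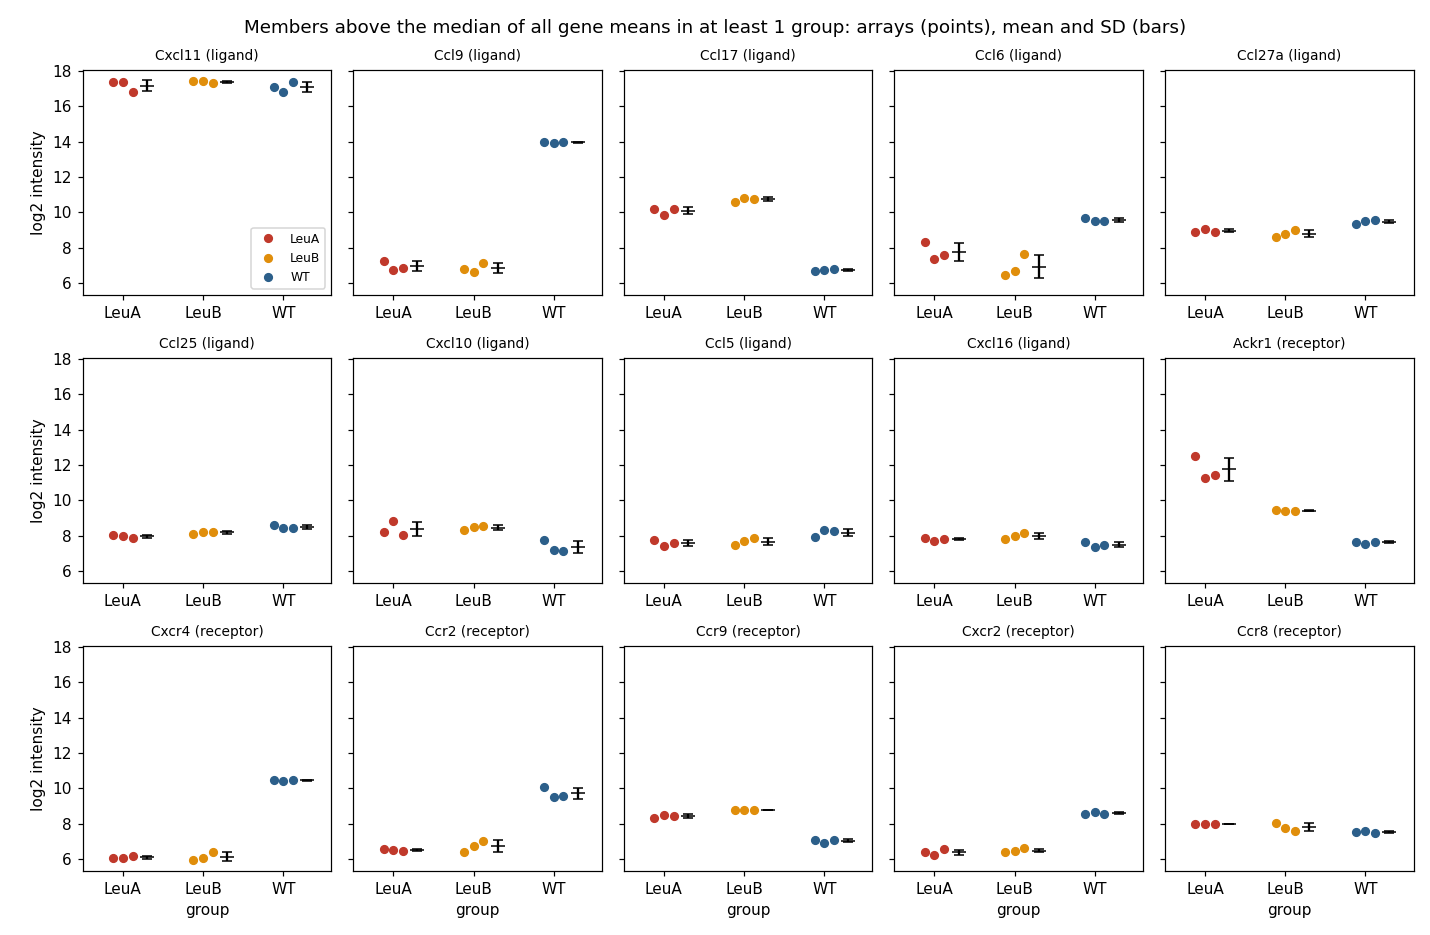
Log2 intensity of each array (points) with group mean and SD (black bars) for the 15 members whose highest group mean exceeded 7.53, with LeuA, LeuB and WT from left to right in each panel. Ccl9, Ccl6, Cxcr4, Ccr2 and Cxcr2 are lower in all leukaemic arrays, Ccl17, Ackr1 and Ccr9 are higher, and Cxcl11 overlaps between the groups near 17.

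Among the receptors, 3 signalling receptors of normal myeloid progenitors fell in both leukaemias. Cxcr4, the receptor for Cxcl12, was at 6.09, 6.05 and 6.18 in LeuA and at 5.99, 6.06 and 6.42 in LeuB, against 10.47, 10.40 and 10.49 in WT. All leukaemic arrays lay near the bottom of the scale and all WT arrays well above the median of genes. Cxcr4 was 20.3-fold lower in LeuA (log2 difference -4.34, SE 0.11, adjusted p = 1.5e-09) and 19.7-fold lower in LeuB (-4.30, adjusted p = 1.61e-09). Ackr3, the atypical receptor for the same ligand, was at 5.98, 6.20 and 6.11 in LeuA and at 6.14, 5.91 and 6.07 in LeuB, against 6.09, 6.09 and 5.96 in WT, and was not called (adjusted p = 0.745 and 0.956).

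Ccr2, which monocytes use to leave the marrow, was at 6.57, 6.51 and 6.48 in LeuA and at 6.39, 6.74 and 7.05 in LeuB, against 10.09, 9.53 and 9.58 in WT. The LeuB arrays were more spread than the LeuA arrays, with LeuB 3 the highest, and WT 1 was the highest WT array. Ccr2 was 9.25-fold lower in LeuA (-3.21, SE 0.18, adjusted p = 4.7e-07) and 8.03-fold lower in LeuB (-3.01, adjusted p = 7.54e-07). Its ligands Ccl2, Ccl7 and Ccl12 had group means between 5.97 and 6.81 and were not called.

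Cxcr2, the receptor by which neutrophils answer Cxcl1 and Cxcl2, was at 6.38, 6.25 and 6.56 in LeuA and at 6.40, 6.46 and 6.61 in LeuB, against 8.58, 8.69 and 8.55 in WT. Each group was compact, and the leukaemic arrays lay near the bottom of the scale. Cxcr2 was 4.62-fold lower in LeuA (-2.21, SE 0.09, adjusted p = 5.62e-08) and 4.32-fold lower in LeuB (-2.11, adjusted p = 7.41e-08). Of 6 mature neutrophil genes measured beside it (Ltf, Camp, Ngp, S100a8, S100a9 and Retnlg), 4 fell in LeuA and 2 in LeuB. Their mean lay between 7.59 and 7.70 in the LeuA arrays, 6.82 and 9.89 in the LeuB arrays, and 9.03 and 11.24 in the WT arrays, and their part in the fall of Cxcr2 was not tested. Cxcr1 and Ccr1, known as receptors of mature granulocytes and monocytes, had group means between 5.94 and 6.56. Ccr1, the receptor for Ccl9 and Ccl6, was at 6.15, 6.14 and 5.99 in LeuA and at 6.18, 6.10 and 6.16 in LeuB, against 5.98, 5.96 and 5.88 in WT. Its rise of 0.21 in LeuB (SE 0.07, adjusted p = 0.034) at this low level was lost with a slide term (adjusted p = 0.0848) and without WT 2 (0.0722), WT 3 (0.122), LeuB 1 (0.0639) or LeuB 3 (0.0834).

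Ackr1, the Duffy antigen, an atypical receptor of red cells, erythroblasts and venules that binds many inflammatory chemokines, was the receptor that rose most. It was at 12.50, 11.28 and 11.46 in LeuA and at 9.45, 9.42 and 9.39 in LeuB, against 7.66, 7.57 and 7.66 in WT. The 3 groups were fully separate, with LeuA highest, and LeuA 1 lay above the other LeuA arrays. Ackr1 was 17.4-fold higher in LeuA (4.12, SE 0.26, adjusted p = 1.02e-06) and 3.46-fold higher in LeuB (1.79, adjusted p = 0.000354). LeuB was 5.02-fold lower than LeuA (-2.33, adjusted p = 0.000659), and the difference was -1.95 without LeuA 1 and -2.30 with a slide term (adjusted p = 0.0193).

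The erythroid genes Klf1, Epor, Hba-a1 and Ermap moved with Ackr1 against WT but not between the leukaemias. All 4 measured rose in both, and their mean level lay between 13.81 and 14.07 in the LeuA arrays, 13.94 and 14.05 in the LeuB arrays, and 8.08 and 8.35 in the WT arrays. LeuB minus LeuA ranged over these genes between -0.15 and 0.49, and 0 of 4 were called (limma), against -2.33 for Ackr1. Of 6 eosinophil, basophil and mast cell genes, 3 were called between the leukaemias, all lower in LeuB than in LeuA (Fcer1a -2.73, Cma1 -1.17 and Cpa3 -0.90), and Mcpt8 (-0.45), Prg2 (-0.11) and Epx (0.09) were not. Against WT, LeuA had 2 of the 6 higher and 3 lower, LeuB had 2 higher and 4 lower, and their mean lay between 10.37 and 10.86 in the LeuA arrays, 9.54 and 9.96 in the LeuB arrays, and 10.26 and 10.30 in the WT arrays. Of the endothelial genes, Cdh5 was at 6.55 in LeuA, 6.11 in LeuB and 6.23 in WT and was not called in any comparison. Kdr was at 6.64 in LeuA, 7.51 in LeuB and 6.41 in WT. It rose by 0.23 in LeuA (adjusted p = 0.0415) and by 1.10 in LeuB (1.86e-06). In Kdr LeuB exceeded LeuA by 0.87 (adjusted p = 0.000149), whereas Ackr1 was lower in LeuB than in LeuA. The part of these cells in the Ackr1 result was not tested.

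Ccr9, the receptor for Ccl25 on thymocytes, gut-homing T cells and plasmacytoid dendritic cells, rose in both leukaemias. It was at 8.33, 8.51 and 8.46 in LeuA and at 8.79, 8.80 and 8.78 in LeuB, against 7.08, 6.95 and 7.11 in WT. The groups did not overlap, and the LeuB arrays lay almost together. Ccr9 was 2.61-fold higher in LeuA (1.39, SE 0.07, adjusted p = 2.27e-07) and 3.35-fold higher in LeuB (1.74, adjusted p = 4.33e-08). LeuB exceeded LeuA by 0.36 (adjusted p = 0.012), a call lost with a slide term (0.36, adjusted p = 0.109). A second, dimmer Ccr9 probe (6.72 in LeuA, 6.22 in LeuB and 6.17 in WT) gave 0.55 and 0.05 and was not called. T cell and NK cell genes beside it (Cd3e, Cd3g, Cd4 and Ncr1) had mean levels between 7.60 and 7.74 in the LeuA arrays, 7.45 and 7.60 in the LeuB arrays, and 7.64 and 7.79 in the WT arrays, with 0 of 4 called in LeuA (limma) and 1 higher and 2 lower in LeuB. Of 3 dendritic cell genes, Flt3 (-3.16 in LeuA, -3.11 in LeuB) and Itgax (-0.66 in LeuA, -0.62 in LeuB) fell, and Siglech (0.25 in LeuA, 0.37 in LeuB) was not called. A second Flt3 probe gave -0.10 in LeuA and -0.09 in LeuB and was not called. The mean of the 3 dendritic cell genes lay between 9.67 and 9.74 in the LeuA arrays, 9.75 and 9.80 in the LeuB arrays, and 10.69 and 11.02 in the WT arrays. The part of these cells in the Ccr9 result was not tested.

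Ccr8, the receptor for Ccl1, was at 7.97, 8.02 and 7.99 in LeuA and at 8.05, 7.76 and 7.61 in LeuB, against 7.54, 7.58 and 7.46 in WT. It rose by 0.47 in LeuA (SE 0.10, adjusted p = 0.00478). In LeuB it differed by 0.28 (adjusted p = 0.0517), and by 0.52 with a slide term (adjusted p = 0.00191), where LeuB 1, the highest LeuB array, is the one on the slide of WT. Without LeuB 3 the LeuB difference was 0.38 (adjusted p = 0.0125). LeuB minus LeuA was -0.19 (adjusted p = 0.266), and -0.31 without LeuB 1 (0.0152).

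Cxcr3, the receptor for Cxcl9, Cxcl10 and Cxcl11, was not called against WT in either leukaemia, but was called between them. It was at 6.74, 6.88 and 6.79 in LeuA and at 6.97, 7.39 and 7.41 in LeuB, against 7.05, 7.01 and 7.00 in WT. LeuB exceeded LeuA by 0.46 (SE 0.11, adjusted p = 0.0308), the LeuB arrays of the second slide being higher than LeuB 1. With a slide term the difference was 0.17 (adjusted p = 0.382), and the call was also lost without any one of WT 2 (0.0509), WT 3 (0.0544), LeuA 1 (0.0824), LeuA 2 (0.0562), LeuA 3 (0.0878), LeuB 2 (0.123) or LeuB 3 (0.112). Without LeuB 1, Cxcr3 was called against WT in both leukaemias, at -0.22 in LeuA (adjusted p = 0.0158) and 0.38 in LeuB (0.00132). Ackr4, the atypical receptor for Ccl19 and Ccl25, rose by 0.25 in LeuB (adjusted p = 0.0386) at a group mean of 6.34, a call lost with a slide term (0.159) and without WT 2 (0.121), WT 3 (0.0963), LeuB 1 (0.0639) or LeuB 2 (0.13). Its second probe gave 0.03 (adjusted p = 0.765), and the mean of both 0.14 (adjusted p = 0.124).

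The 12 receptors called in no comparison had highest group means between 6.10 and 7.18, and their largest difference from WT in size was 0.17 in LeuA and 0.31 in LeuB. They include Ccr7, the receptor for Ccl19 (6.87 in LeuA, 6.73 in LeuB and 7.04 in WT), the eosinophil receptor Ccr3 (7.03, 7.02 and 6.90) and Cxcr6, the receptor for Cxcl16 (7.10, 7.18 and 7.11). Cxcr5 and Xcr1, receptors of B cells and of a class of dendritic cells, had group means between 6.16 and 6.36.

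**Figure D3:**
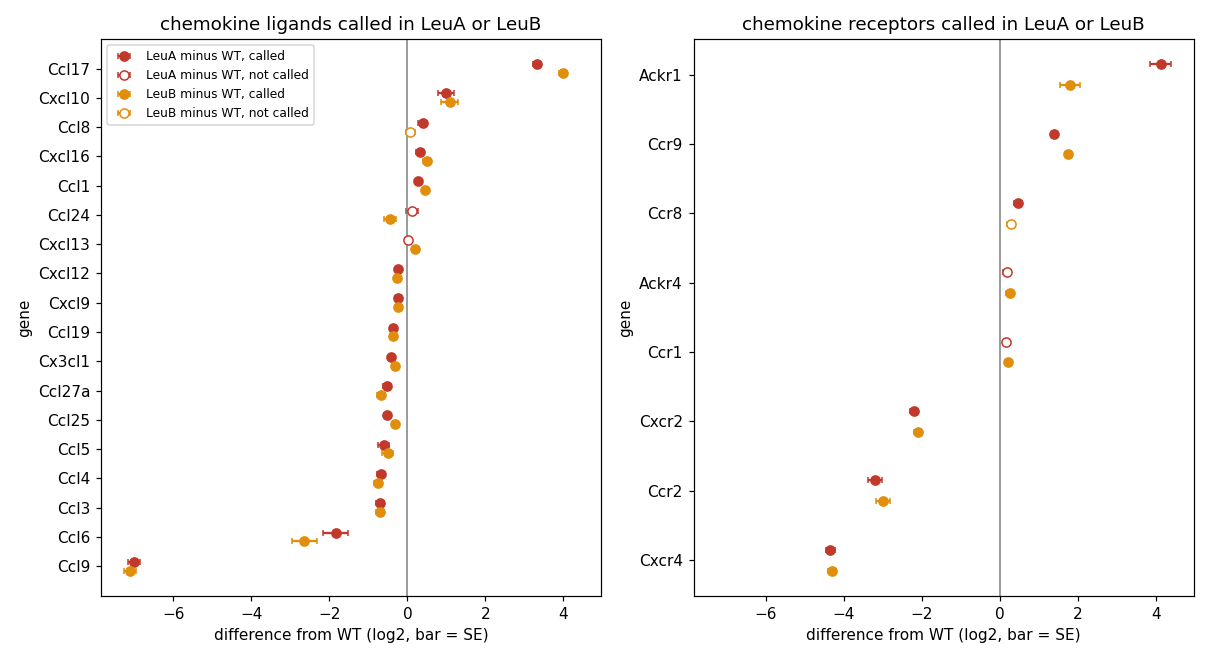
Difference from WT on the log2 scale with its SE for the 18 ligands (left) and 8 receptors (right) called in at least 1 leukaemia, with LeuA in red above LeuB in orange and open points for differences that were not called. Ccl9 lies near -7 in both, Cxcr4 near -4.3 in both, and Ackr1 is farther from 0 in LeuA (4.12) than in LeuB (1.79).

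The direct test of LeuB against LeuA called 1 ligand (Ccl17, higher) and 3 receptors (Ccr9 and Cxcr3, higher, and Ackr1, lower), that is 2.86% of ligands and 14.3% of receptors, against 12.3% of all genes (6.91% higher, 5.36% lower). Ackr1 was the only one of these 4 past 2-fold, against 1.72% of all genes called with such a change, and the only one called with a slide term. The LeuB and LeuA arrays did not overlap in 9 ligands and 4 receptors (30.2% of all genes).

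With a slide term, where LeuB 1 sets the LeuB level, the larger differences of LeuB from WT kept their calls. They were -7.16 for Ccl9, 3.84 for Ccl17, -3.13 for Ccl6, -4.465 for Cxcr4, -3.34 for Ccr2, -2.20 for Cxcr2, 1.82 for Ackr1 and 1.75 for Ccr9. The number of ligands called in LeuB was then 10 (28.6%), all of them among the 17, against 32.5% of all genes in that model. It was also 10 on the first slide alone, against 31% of all genes, where the lone LeuB array is taken to have the spread of the LeuA and WT arrays.

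Many chemokine genes lie side by side. On chromosome 11 the order in the annotation is Ccl5, Ccl9, Ccl6, Ccl3 and Ccl4, and all 5 fell in both leukaemias, by sizes that ran from 0.51 for Ccl5 in LeuB to 7.11 for Ccl9 in LeuB. The other block on that chromosome, Ccl2, Ccl7, Ccl11, Ccl12, Ccl8 and Ccl1, held rises of Ccl1 in both leukaemias and of Ccl8 in LeuA. On chromosome 8, Ccl17 rose, Cx3cl1 next to it fell and Ccl22 was not called. On chromosome 5, Cxcl10 rose and Cxcl9 fell in both leukaemias, and Cxcl11 was not called. Cxcl9 was dim, and its calls and the LeuB call of Cxcl10 did not hold under every alternative, as given above. Cxcl5, Cxcl3, Cxcl15, Cxcl1 and Cxcl2, also on chromosome 5, were not called. Pf4 and Ppbp, chemokines on chromosome 5 with symbols outside the naming rule, are not among the members. Pf4 fell in both leukaemias (-3.79 in LeuA, -3.28 in LeuB), and Ppbp was not called. On chromosome 9 the receptor genes Ccr9, Cxcr6, Xcr1, Ccr1, Ccr1l1, Ccr3 and Ccr2 follow each other, and the first rose while the last fell in both leukaemias. The genes Cxcr6, Xcr1, Ccr1l1 and Ccr3 between them were not called.

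**Figure D4:**
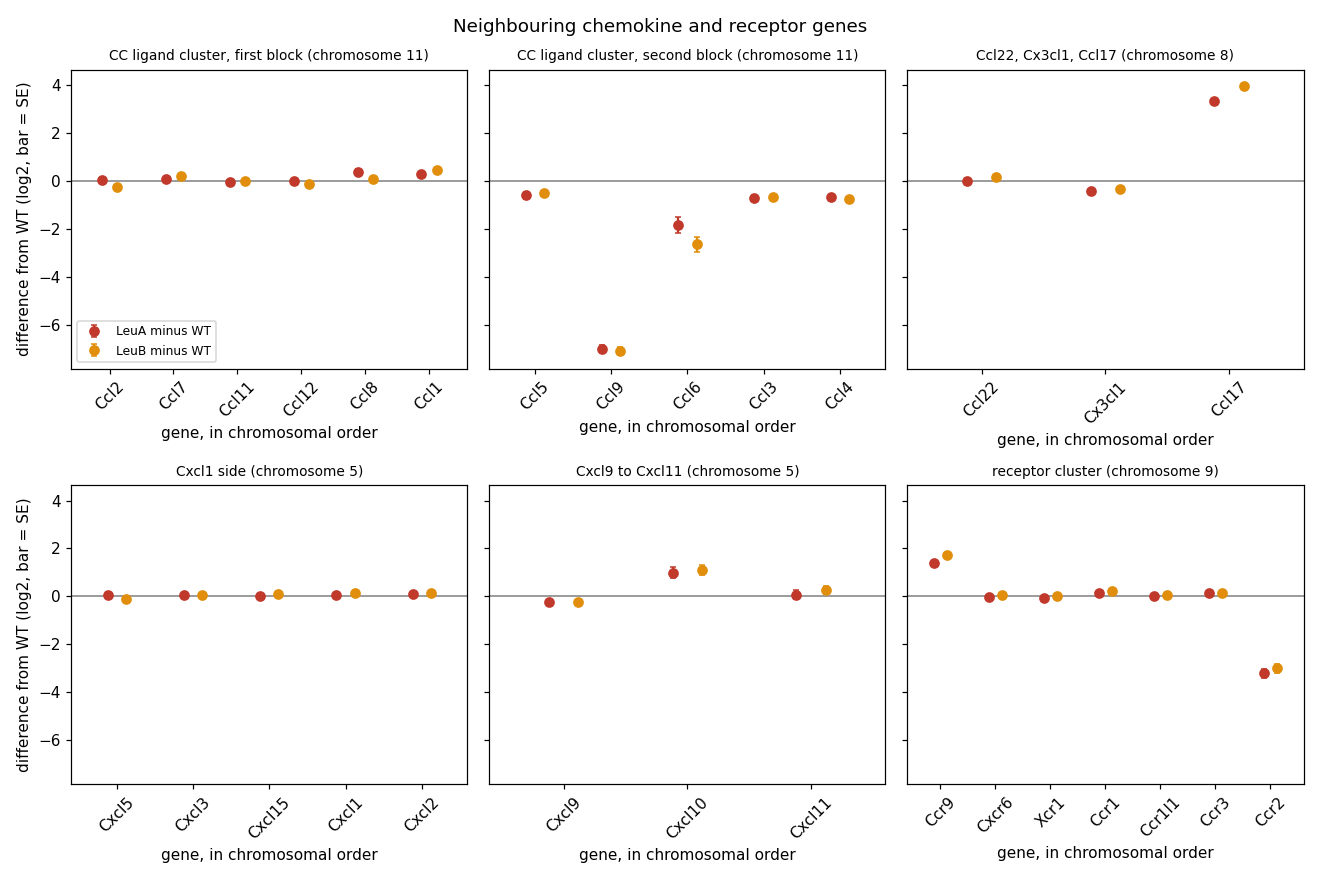
Difference from WT (log2, bars are SE) of neighbouring members in chromosomal order, with LeuA in red left of LeuB in orange, in 6 groups of genes on chromosomes 11, 8, 5 and 9. The 5 genes from Ccl5 to Ccl4 all lie below 0, Ccl17 stands above its neighbours, and Ccr9 and Ccr2 lie on opposite sides of 0 at the ends of the receptor group.

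The machinery downstream of the receptors was read with a list of 30 measured genes for G protein subunits, kinases, arrestins and regulators. LeuA had 10 of these higher and 12 lower (73.3% called, against 36.8% of all genes and 58.8% of the genes above the median), and LeuB 9 higher and 10 lower (63.3%, against 42.3% and 63.7%), with median differences of -0.05 and -0.06. Of the 30, 27 lay above the median of genes. Gnai2, the main Gi subunit of white blood cells, was at 14.29 in LeuA, 14.47 in LeuB and 14.32 in WT and was not called. Grk3, a kinase that desensitizes chemokine receptors, was at 6.29 in LeuA and 6.24 in LeuB, against 10.53 in WT (differences -4.24 and -4.29, SE 0.10), and its second probe gave -2.05 and -1.86. Grk5, another kinase of that family, rose by 2.66 and 2.25 (SE 0.08), to 9.18 in LeuA and 8.77 in LeuB, against 6.52 in WT.

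Rgs1, which shortens Gi signals and dampens migration to chemokines, rose in both (3.12 in LeuA with an adjusted p of 1.66e-06, 2.64 in LeuB with 5.28e-06, SE 0.21). It was at 10.00, 10.91 and 10.51 in LeuA and at 9.91, 10.11 and 9.97 in LeuB, against 7.07, 7.46 and 7.53 in WT. The arrestins Arrb1 (0.76 and 1.05, SE 0.21) and Arrb2 (1.27 and 0.72, SE 0.08), which uncouple and internalize receptors, also rose. Pik3r5, the adaptor of the Gi-activated PI3-kinase, fell (-1.94 and -2.09, SE 0.11), while the catalytic subunit Pik3cg differed by -0.18 and 0.12 and was not called. Rgs2 (-1.71 and -2.00) and Rgs18 (-1.79 and -1.44), further regulators of this class, fell. Rgs3 fell by its brightest probe (-2.56 and -2.50), and its other 2 probes were not called.

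Relatives with other symbols were read apart, 15 measured genes for chemokines named otherwise and for other attractants, their receptors and modifiers. Of these, 1 rose and 4 fell in each leukaemia (33.3% called), against 36.8% of all genes in LeuA and 42.3% in LeuB. Of the 7 relatives above the median of genes, 5 were called in each leukaemia, against 58.8% and 63.7% of all genes above it. Pf4, the chemokine also called Cxcl4, was at 6.15, 6.56 and 6.41 in LeuA and at 6.75, 6.70 and 7.19 in LeuB, against 10.66, 9.97 and 9.84 in WT, and the differences were -3.79 and -3.28 (SE 0.22). All leukaemic arrays lay below WT. Beside it, 2 of 3 megakaryocyte genes fell in both leukaemias, and the mean of the 3 lay between 7.27 and 7.42 in the LeuA arrays, 7.60 and 7.91 in the LeuB arrays, and 8.56 and 8.63 in the WT arrays, and their part in the fall of Pf4 was not tested. Dpp4, a protease that inactivates Cxcl12, fell (-2.43 and -2.42, SE 0.10), as did Mif, a cytokine that can bind Cxcr4 and Cxcr2 (-2.69 and -1.44, SE 0.18). Ltb4r1, the receptor for the neutrophil attractant leukotriene B4, also fell (-3.08 and -3.28, SE 0.14). Ptgdr2, the prostaglandin D2 receptor of type 2 immune cells, was the one that rose, by 1.20 and 1.27 (SE 0.10), to 7.59 in LeuA and 7.66 in LeuB, against 6.39 in WT.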

How the data were processed

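Total RNA of sorted GMPs was measured on 9 single-dye Agilent arrays, 3 each for LeuA, LeuB and WT, grouped by sample title. For the LeuB arrays the label on the transplanted cells names LeuA, and title and source name LeuB. The deposited values are log2 intensities of 37877 probes with array medians of 7.02 to 7.04. Per the submitters' processing notes the tools were RMA, affy and limma, with no versions or roles. Background correction and detection flags are not given in the sources used here, so a dim value has no stated background, and a fold between dim levels may be understated.

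Probes were named from the platform annotation (24877 probes with 1 symbol, 0 with several, 13000 with none), giving 21872 genes. Of the named probes 24606 matched RefSeq gene identifiers, which changed 0 symbols. Each gene took its brightest probe over all arrays. 8 members had more than 1 probe. Group means were fitted to all 9 arrays with limma 3.58.1 in R 4.3.3, lmFit and eBayes at their defaults, two-sided, with Benjamini-Hochberg adjustment over all genes. The median residual SD was 0.112. SE is that of the moderated fit and is shared by the comparisons with WT. The fit was tested on simulated data. The labels call the arrays biological triplicates of a leukaemia from 1 donor, and p-values reflect only how far such arrays vary.

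The members, gene lists and named genes were chosen with earlier results of these data known. Members called in any comparison with a highest group mean above the median of genes, and a list of fixed members (Ccr1, Ccr2, Ccr9, Cxcr2, Cxcr4, Ackr3, Ccl3, Ccl4, Ccl5, Ccl9, Ccl6, Cxcl2 and Cxcl12), are given for every array. Cx3cr1 was on the fixed list too, but was not among the 21 receptors found. Cxcl11, Cxcr3, Pf4 and Rgs1 were added after their values were seen. Marker lists for the label and other cell types were GMP and granule, sort gate, monocyte and macrophage, mature neutrophil, dendritic cell, eosinophil, basophil and mast cell, B cell, T and NK cell, erythroid, megakaryocyte, and stroma and endothelium. Protein sequences were not used here. Alternatives were a further quantile normalization, equal array medians, the mean of a gene's probes, dim genes left out, slide as a block, slide 1 alone, replicate numbers as a block, a trended robust prior, a 2-fold minimum and each array left out.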

Additional observations from a re-analysis of the deposited data

Results flagged for a closer look

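The effects of the leukaemias against WT were compared by testing LeuB against LeuA directly, and 4 members differed. LeuB minus LeuA was 0.65 for Ccl17 (adjusted p = 0.00404), -2.33 for Ackr1 (adjusted p = 0.000659), 0.36 for Ccr9 (adjusted p = 0.012) and 0.46 for Cxcr3 (adjusted p = 0.0308), with all LeuB arrays on 1 side of all LeuA arrays in each. Of these, Ackr1 was called under all 18 alternatives fitted. With slide in the model the calls of Ccl17 (0.52, adjusted p = 0.0889), Ccr9 (0.36, 0.109) and Cxcr3 (0.17, 0.382) were lost. The second Ccr9 probe gave -0.50, and the mean of its probes turned the difference to -0.07 (adjusted p = 0.846). The call of Cxcr3 was lost under 10 of 17 alternatives, and Cxcr3 had its LeuB arrays split by slide (6.97 on the first, 7.39 and 7.41 on the second).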

How the results depend on the processing

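Ccl9, Ccl17, Ccl6, Cxcr4, Ccr2, Cxcr2, Ackr1 and Ccr9 kept their calls against WT, in both leukaemias, under every one of the 18 alternatives fitted. The number of ligands called was 16 in LeuA, 17 in LeuB and 1 between the leukaemias (LeuB against LeuA), and that of receptors 6, 7 and 3. Dim genes left out kept 9 of the 35 ligands, and 8 of these 9 were called in LeuA and 8 in LeuB, all called in the main fit too. In the main fit 58.8% of all genes above the median were called in LeuA and 63.7% in LeuB. A minimum of 2-fold gave 3 and 4 ligands, and between the leukaemias 0 ligands and 1 receptor. Slide as a block and slide 1 alone each gave 10 ligands in LeuB, and between the leukaemias 0 ligands and 1 receptor. Between the leukaemias the mean of all probes, the replicate block, and the trended robust prior each gave 2 ligands (5.71%). Of all genes these settings called 12%, 10.4% and 12.4%. With each array left out in turn, ligands called ranged from 13 to 16 in LeuA and from 14 to 19 in LeuB. Between the leukaemias they ranged from 1 to 5 (5 without LeuB 1, 3 without LeuA 1, 2 without WT 1 or LeuB 3). Receptors called ranged from 6 to 7, 5 to 7 and 2 to 4. The share of all genes called moved too, from 32.3% to 39.3% in LeuA and from 36.6% to 49.5% in LeuB. Between the leukaemias that share was 12.3% with all arrays. It was 25.1% without LeuB 1 (14.3% of ligands) and 6.31% without LeuB 2 (2.86% of ligands). Without LeuB 3 and WT 1 together, an alternative chosen after seeing the data, ligands numbered 13, 13 and 2 and receptors 6, 7 and 1. Of all genes 34.1%, 34.4% and 6.44% were then called. With the mean of both probes Ccr9 turned to -0.0696 in LeuB against LeuA (adjusted p = 0.846), and Ccl1 was called there (0.45, adjusted p = 0.0214). The replicate block gave 14 ligands and 6 receptors in LeuA, 16 and 8 in LeuB, and 2 and 3 between the leukaemias. Of all genes it called 35.9%, 41.9% and 10.4%. After removal of group means, same-numbered arrays correlated between -0.04 and 0.10, with 1 of 9 pairs above 0.1. Of the 9 arrays, 4 correlated best with their own number. With so few arrays these values cannot settle whether the numbers pair the samples. Where no reason is given, the cause was not tested. No detection limit is known, so differences among dim members are the least certain.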
